A study of Mus musculus with 6 samples.

Results

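The citric acid cycle is the series of mitochondrial reactions that oxidises acetyl groups to carbon dioxide and passes the electrons to the respiratory chain. Nuclear genes encode all of its enzymes. Transcripts of 9 of these genes were followed in mouse testis: Cs, Idh3a, Idh3b, Idh3g, Ogdh, Sucla2, Suclg1, Fh1 and Mdh2. They were selected by symbol, all 9 were found among the 24411 genes measured, and all 9 passed the filter on low counts, which left 17110 genes. In the testis the cycle is at work in germ cells and in the somatic cells around them, and differentiating germ cells use lactate supplied by Sertoli cells as fuel for their mitochondria.

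RNA sequencing was carried out on testes of C57BL/6 mice, a standard inbred laboratory strain. The group labelled DKO (double knockout) held 3 animals labelled MRP5-/- and MRP9-/-, and the group labelled WT held 3 age-matched animals labelled wildtype. MRP5 and MRP9 are membrane transporters of the ABCC family, encoded by Abcc5 and Abcc12. The series concerns male reproduction and the function of mitochondria, and the comparison asks which transcripts differ when both transporters are missing. The labels do not describe the alleles and give no treatment.

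Libraries labelled DKO held 42673615 to 67131103 counts and those labelled WT 26753721 to 31745969, and the mean fragment length was 275 to 317 bases against 230 to 258 bases, so neither depth nor fragment length overlapped between the groups. Abcc12 fell to 79.0 ± 5.56 counts per 1000000 (CPM) from 160.3 ± 3.93, whereas Abcc5 rose to 16.8 ± 0.190 from 11.4 ± 0.898 (SD, n = 3 each; edgeR adjusted p = 0.000307 and 0.0225). Neither RNA was absent in libraries labelled DKO, and that of Abcc5 was higher there. As the alleles are not described, these RNA levels do not test the knockout of either gene. The 10 spermatid markers summed to 100704 to 118203 transcripts per 1000000 (TPM) in every library of this testis material. The 10 epididymis markers summed to 6.22 to 8.96 TPM. Rnase10 alone gave 4.96 to 7.24 TPM of that sum, and the other 9 each averaged under 1 TPM. Of the marker lists, 3 of 10 Leydig cell genes were called lower, 3 of 10 Sertoli cell genes lower, 2 of 10 spermatocyte genes higher, 1 of 10 spermatid genes higher and 1 of 10 myoid and endothelial genes lower, while none of the 9 tested spermatogonia, 10 macrophage and 2 tested epididymis genes was called. Of all tested genes, 5.75% were called higher and 5.1% lower (edgeR adjusted p under 0.05). Each marker list is small, and none was tested as a set. In bulk tissue, fewer cells of a type and less RNA per cell cannot be told apart.

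Among the 9 genes, Sucla2 rose by 30.4% in libraries labelled DKO, while Idh3g fell by 29.1% and Mdh2 fell by 19.0%. Sucla2 encodes the ATP-forming subunit of succinyl-CoA ligase, Idh3g a regulatory subunit of the NAD-dependent isocitrate dehydrogenase, and Mdh2 the mitochondrial malate dehydrogenase that closes the cycle. The other 6 did not pass the test. Calls rest on the edgeR quasi-likelihood test with an adjusted p under 0.05, which called 10.8% of all tested genes, 5.75% higher and 5.1% lower. The list was not tested as a set, and 3 of 9 is a small count. Of the 9 genes, 5 had a fold change below 1, as did 50.7% of all tested genes, and the median log2 fold change was -0.02, against -0.0042 over all tested genes. The CPM of the groups did not overlap for 6 of the 9, with DKO below WT for 4 (17.5% of all tested genes) and above for 2 (18.4%).

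The sequences around the annotated starts of the 3 called genes are shown because the RNA levels of these genes differed between the groups. Each is written 5′ to 3′ along the gene's strand, from 250 bases before the start to 50 after it, as given by RefSeq for GRCm38.p6 (the assembly known as mm10). Capitals mark matches to GGGCGG (a GC box), CCGGAAG (an ETS factor motif), TGACG (part of the cyclic AMP response element), the core of the motif of nuclear respiratory factor 1, a regulator of nuclear genes for mitochondria, or a 10-base palindrome found in housekeeping promoters, all searched on both strands. The longest run of capitals in the Sucla2 window spells the former and the run that occurs 3 times in the Mdh2 window the latter. The windows lie at chr14:73552536-73552835 on the plus strand for Sucla2, at chrX:73786848-73787147 on the minus strand for Idh3g and at chr5:135778399-135778698 on the plus strand for Mdh2.
Sucla2: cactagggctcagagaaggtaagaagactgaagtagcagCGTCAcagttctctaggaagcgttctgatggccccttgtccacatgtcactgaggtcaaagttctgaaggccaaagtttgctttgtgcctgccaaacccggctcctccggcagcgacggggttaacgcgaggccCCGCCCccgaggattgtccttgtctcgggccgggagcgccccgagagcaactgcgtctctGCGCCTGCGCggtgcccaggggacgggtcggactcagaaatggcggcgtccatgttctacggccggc
Idh3g: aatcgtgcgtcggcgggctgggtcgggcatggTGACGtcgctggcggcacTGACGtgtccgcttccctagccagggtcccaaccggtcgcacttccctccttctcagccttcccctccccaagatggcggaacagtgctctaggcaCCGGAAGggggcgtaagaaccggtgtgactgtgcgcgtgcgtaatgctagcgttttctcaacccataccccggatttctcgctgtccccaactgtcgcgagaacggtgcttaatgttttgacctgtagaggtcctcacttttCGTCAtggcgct
Mdh2: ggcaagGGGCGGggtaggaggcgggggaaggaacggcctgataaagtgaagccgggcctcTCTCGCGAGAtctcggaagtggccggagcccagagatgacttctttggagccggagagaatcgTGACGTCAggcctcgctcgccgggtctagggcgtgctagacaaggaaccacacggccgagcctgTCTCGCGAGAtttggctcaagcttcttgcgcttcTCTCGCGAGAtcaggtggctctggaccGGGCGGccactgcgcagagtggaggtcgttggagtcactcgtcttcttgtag

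The Mdh2 window held 3 copies of the palindrome, starting 190, 63 and 29 bases before the gene start, which 0.837% of 16125 windows of the same length at 12876 tested genes contained. It also held the full response element TGACGTCA, present in 2.77% of windows, with TGACG inside it on both strands. The Sucla2 window held 1 match to the nuclear respiratory factor 1 core, 17 to 8 bases before the start, present in 8.16% of windows, 1 GC box, present in 55.5%, and 1 TGACG, present in 27.6%. Idh3g had 1 ETS motif, present in 14.2% of windows, and 3 matches to TGACG. Windows were found for 8 of the 9 genes, Idh3a being the other. Across these 8, TGACG was found at 7, the GC box at 5, CCAAT at 4 (37.6% of all windows), the ETS motif at 2, and TATAAA at 0 (8.04% of all windows). The full TGACGTCA was found at 2, Mdh2 and the uncalled Ogdh. A gene was counted if any of its windows matched, and Ogdh had several windows. The 3 called genes had no motif of these in common other than TGACG, which also occurred at 4 members that were not called. A match is a description of letters and not of a bound site.

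Transcript levels can be compared between genes only per length, and TPM was used for this. Over the 6 libraries Sucla2 was the most abundant member at 366 ± 52.7 TPM, followed by Suclg1 at 222 ± 15.02 and Idh3b at 137 ± 15.1 (SD, n = 6). Then came Mdh2 at 49.6 ± 7.89, Ogdh at 39.0 ± 3.12, Cs at 36.8 ± 1.76, Fh1 at 24.4 ± 2.55, Idh3g at 13.9 ± 3.57 and Idh3a at 11.8 ± 0.939 TPM. The first 7 places were the same in every library. The ranges of Mdh2 and Ogdh overlapped across libraries, as did those of Ogdh and Cs, although within each library the order held in 6 of 6. Idh3g and Idh3a could not be ordered, since Idh3g was the higher of the pair in 4 of 6 libraries. Sucla2 lay at percentile 97.2 and Idh3a at percentile 56.6 of the mean TPM of all tested genes.

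**Figure D1:**
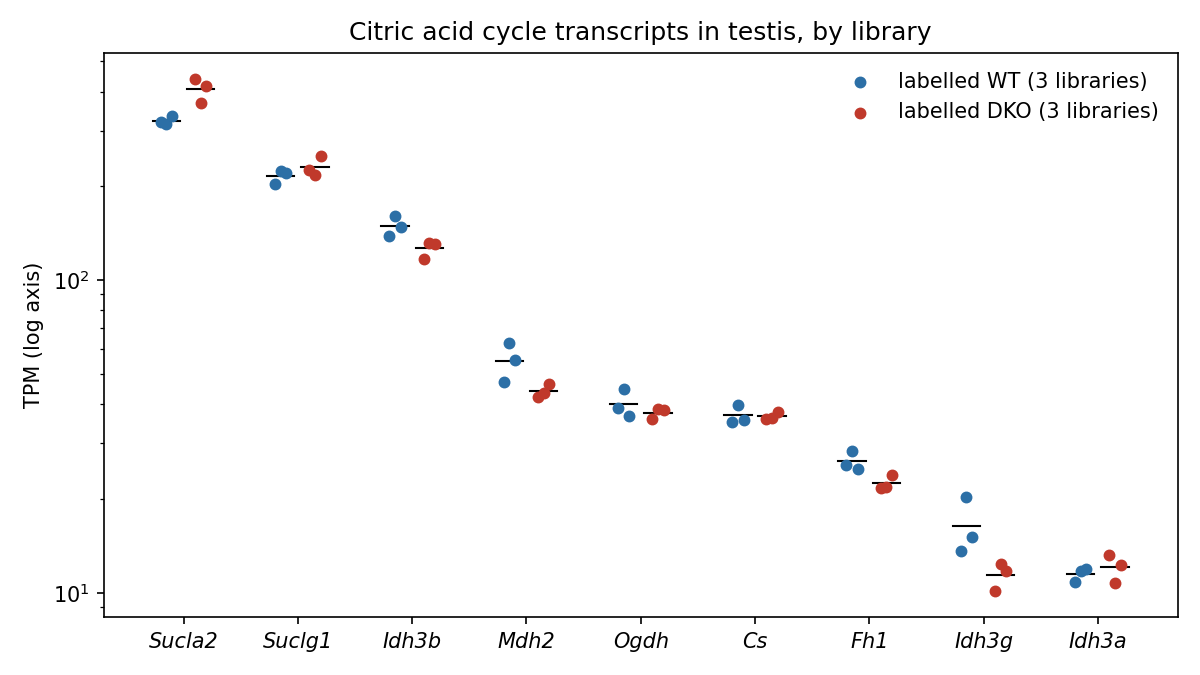
TPM of the 9 genes on a log axis, ordered by their mean, with 1 point per library and a black line at each group's mean (blue, labelled WT; red, labelled DKO). Sucla2 spans 315 to 439.8 TPM with the red points above the blue ones, and the 3 genes of isocitrate dehydrogenase are far apart in level, with Idh3b at 117 to 160.1 TPM and Idh3a at 10.8 to 13.2.

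The summed TPM of the 9 genes was 941, 879 and 966 in libraries labelled DKO and 831, 907 and 881 in those labelled WT. The groups overlapped, at 928 ± 44.9 against 873 ± 38.8 (SD, n = 3 each; exact permutation test, two-sided, p = 0.3, with 0.1 the smallest p that 3 against 3 allow). Sucla2 alone made up 43.9% ± 2.54 of that sum in libraries labelled DKO and 37.0% ± 1.96 in those labelled WT, without overlap. The share of Suclg1 was 24.7% ± 0.877 against 24.6% ± 0.315.

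Citrate synthase, which joins acetyl-CoA to oxaloacetate and opens the cycle, is encoded by Cs (chr10:128337727-128362482). Its normalised level was 64.4, 66.6 and 65.0 CPM in libraries labelled DKO and 62.9, 65.3 and 61.6 CPM in those labelled WT. The groups overlapped, and the log2 fold change was 0.05 (SE 0.0659; edgeR adjusted p = 0.669). Csl, a citrate synthase paralog whose gene of 1954 bases is as long as its transcript and so has no intron, was more abundant than Cs in every library. Csl had 228, 233 and 251 TPM in libraries labelled DKO and 238, 244 and 234 TPM in those labelled WT, on average 6.47 times the TPM of Cs, a ratio computed after the values were seen. Neither citrate synthase gene passed the test, with a log2 fold change of 0.03 for Csl (SE 0.0671; edgeR adjusted p = 0.762).

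NAD-dependent isocitrate dehydrogenase oxidises isocitrate to oxoglutarate and is built from a catalytic alpha subunit (Idh3a), a beta subunit (Idh3b) and a regulatory gamma subunit (Idh3g). The X-linked Idh3g (chrX:73778963-73786897) had 7.33, 9.34 and 8.30 CPM in libraries labelled DKO and 10.2, 14.1 and 10.9 CPM in those labelled WT. Every library labelled DKO was below every library labelled WT, and WT replicate 2 was the highest. On the log2 scale Idh3g fell by 0.50 (SE 0.135; edgeR adjusted p = 0.0416). Groups without overlap in either direction were found for 35.9% of all tested genes.

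Idh3b (chr2:130279309-130284451) had 100.2, 118 and 109 CPM in libraries labelled DKO and 121, 130.2 and 125 CPM in those labelled WT. The groups did not overlap, yet Idh3b did not pass the test, with a log2 fold change of -0.21 (with SE 0.0764; edgeR adjusted p = 0.0916). Idh3b shares exonic bases with Nop56 on the opposite strand, and the strand handling of the counts is not given in the sources used here, so reads within the shared bases could belong to either gene. None of the deposited Idh3b counts was fractional. Idh3a (chr9:54586511-54604662) had 19.7, 16.5 and 17.6 CPM in libraries labelled DKO and 16.2, 16.1 and 17.2 CPM in those labelled WT. These groups overlapped, with a log2 fold change of 0.12 (with SE 0.0919; edgeR adjusted p = 0.376).

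Relative to the catalytic subunit, Idh3g was at 0.763, 1.15 and 0.950 of the TPM of Idh3a in libraries labelled DKO and at 1.26, 1.73 and 1.27 in those labelled WT. The ratio of Idh3b to Idh3a was 8.79, 12.2 and 10.6 against 12.8, 13.7 and 12.4. As Idh3a enters both, these ratios are not independent. Both ratios were lower in each library labelled DKO than in any labelled WT (two-sided exact permutation p = 0.1, which is the lower limit for 3 against 3, and 0.125 when adjusted over the 5 ratios examined). Transcript of Idh3b was thus 11.7 times that of Idh3a on average over the 6 libraries, while Idh3g was 1.19 times. Among 677 tested X-linked genes the median log2 fold change was 0.07, with 23 called lower and 60 higher, and among 15540 autosomal genes it was -0.01. The fall of Idh3g was opposite in sign to the median of the X chromosome, a comparison chosen after its value was seen.

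The oxoglutarate dehydrogenase complex converts oxoglutarate to succinyl-CoA and consists of a decarboxylase (Ogdh), a succinyltransferase (Dlst) and a dihydrolipoyl dehydrogenase (Dld) that it shares with pyruvate dehydrogenase. Ogdh (chr11:6291597-6359094) had 163, 179 and 164 CPM in libraries labelled DKO and 173, 181 and 157 CPM in those labelled WT. The groups overlapped, with a log2 fold change of -0.02 (with SE 0.0775; edgeR adjusted p = 0.908). Ogdh is the one member with several annotated transcripts, 5 in the files, and its abundance-weighted length was 6647 ± 2.12 bases against 6643 ± 2.27 (SD, n = 3 each), with overlapping groups. A mean length does not measure the mix of the 5 transcripts, which was not tested.

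Of the other parts of that complex, Dld was called and Dlst was not. Dld had 108, 92.9 and 90.6 CPM in libraries labelled DKO and 71.8, 69.2 and 73.8 CPM in those labelled WT. It rose without overlap, by 35.8% (log2 fold change 0.44 with SE 0.0811; edgeR adjusted p = 0.0237). Dlst had 109.6 ± 7.01 against 123 ± 5.06 CPM and did not pass the test (log2 fold change -0.16 with SE 0.0736; edgeR adjusted p = 0.156). The ratio of Ogdh to Dlst in TPM was 0.600 ± 0.0314 in libraries labelled DKO and 0.549 ± 0.0501 in those labelled WT, with overlap (SD, n = 3 each; exact permutation test, two-sided, p = 0.3). Ogdhl, a paralog of Ogdh, was the only called gene of 12 paralogs and counterparts of the cycle's enzymes in other compartments. Over all tested genes, 10.8% were called. Ogdhl fell from 33.2, 46.5 and 34.4 CPM in libraries labelled WT to 22.9, 27.6 and 29.5 CPM in those labelled DKO (log2 fold change -0.51 with SE 0.132; edgeR adjusted p = 0.0376).

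Succinyl-CoA ligase splits succinyl-CoA and makes a nucleoside triphosphate. It pairs the common alpha subunit Suclg1 with a beta subunit, either the ATP-forming Sucla2 or the GTP-forming Suclg2. Sucla2 (chr14:73552786-73596144) had 563, 486 and 514 CPM in libraries labelled DKO and 409.9, 373 and 415 CPM in those labelled WT. All libraries labelled DKO were above all libraries labelled WT, and DKO replicate 1 was the highest. Sucla2 rose by 0.38 on the log2 scale (SE 0.0791), with the smallest p among the members (edgeR adjusted p = 0.0269).

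Suclg1 (chr6:73248505-73276907) had 173, 173 and 186 CPM in libraries labelled DKO and 159, 164 and 168 CPM in those labelled WT. Its CPM did not overlap between the groups, its TPM did, and it did not pass the test (log2 fold change 0.12 with SE 0.0679; edgeR adjusted p = 0.258). Suclg2 had 21.8, 19.8 and 21.1 CPM against 18.4, 23.5 and 21.1 CPM, with overlap (log2 fold change -0.01 with SE 0.0976; edgeR adjusted p = 0.966). The transcript for the ATP-forming beta subunit therefore far exceeded that for the GTP-forming one in this tissue. Sucla2 had 44.6, 42.1 and 41.6 times the TPM of Suclg2 in libraries labelled DKO and 37.9, 27.0 and 33.4 times in those labelled WT. The ratio of Suclg1 to both beta subunits together was 0.552 ± 0.0443 against 0.646 ± 0.0336 (SD, n = 3 each). Neither ratio overlapped between DKO and WT libraries (two-sided exact permutation p = 0.1 for each, 0.125 adjusted over the 5 ratios). Sucla2 enters both ratios, so they are not independent of each other or of the rise of Sucla2.

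**Figure D2:**
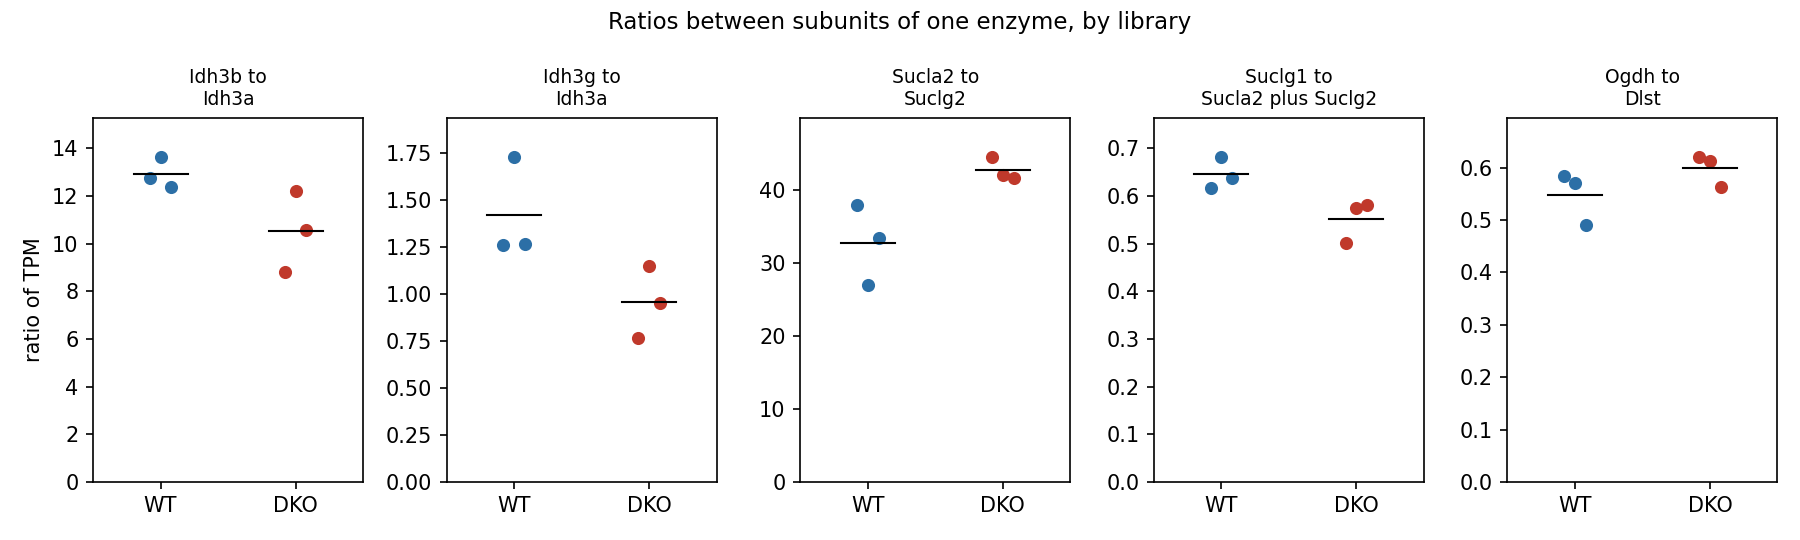
Ratios of TPM between subunits of the same enzyme, with 1 point per library, a black line at each group's mean and axes that start at 0 (blue, WT; red, DKO). In the Sucla2 to Suclg2 panel the DKO points sit between 41.6 and 44.6 and the WT points between 27.0 and 37.9, while in the Ogdh to Dlst panel the groups overlap.

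Likeness to the Sucla2 profile over the 6 libraries was measured for 7956 other genes whose average log2 CPM reached 4. The 3 most alike were Vdac3, a channel of the outer mitochondrial membrane, Gm12669, and Csnk1a1, a casein kinase, each with Pearson's r of at least 0.998. These values describe 6 libraries that share depth and fragment length with genotype, and no p is given. Vdac3 was higher in libraries labelled DKO by 0.42 on the log2 scale (SE 0.0831). Gm12669 and Csnk1a1 had log2 fold changes of 0.63 and 0.37. The 3 genes were picked for likeness to Sucla2 in these same libraries, so the direction of their fold changes follows from that choice. The counts of Gm12669 carried fractions in 5 libraries, so its reads were shared with other genes and its level is uncertain.

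Succinate dehydrogenase, which is also complex II of the respiratory chain, oxidises succinate to fumarate. Of its 4 genes, Sdhc, a membrane anchor, fell from 55.5, 59.4 and 60.8 CPM in libraries labelled WT to 48.5, 52.1 and 41.9 CPM in those labelled DKO (log2 fold change -0.30 with SE 0.0876; edgeR adjusted p = 0.0488). The flavoprotein gene Sdha, the iron-sulfur gene Sdhb and the anchor gene Sdhd had log2 fold changes of -0.10, -0.16 and -0.18 and did not pass the test (edgeR adjusted p = 0.381, 0.163 and 0.138).

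Fumarase, encoded by Fh1 (chr1:175601378-175625635), hydrates fumarate to malate. Fh1 had 20.4, 21.3 and 21.7 CPM in libraries labelled DKO and 24.4, 25.2 and 23.0 CPM in those labelled WT. The groups did not overlap, but the log2 fold change of -0.19 did not pass the test (SE 0.0784; edgeR adjusted p = 0.114).

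Mitochondrial malate dehydrogenase, encoded by Mdh2 (chr5:135778649-135790386), regenerates oxaloacetate and also serves the malate-aspartate shuttle. Mdh2 had 29.1, 31.5 and 31.5 CPM in libraries labelled DKO and 33.7, 41.6 and 38.4 CPM in those labelled WT. Each library labelled DKO was below each labelled WT, and WT replicate 2 was again the highest. Mdh2 fell by 0.30 on the log2 scale (SE 0.0881; edgeR adjusted p = 0.0495), at the edge of the threshold. Its cytosolic counterpart Mdh1 had 17.7 ± 0.363 against 20.3 ± 3.67 CPM and did not pass the test (log2 fold change -0.20; edgeR adjusted p = 0.262). Mdh1b, a relative of Mdh1, had 125, 125 and 124 CPM in libraries labelled DKO and 110.3, 106 and 115 CPM in those labelled WT and did not pass the test either (log2 fold change 0.18 with SE 0.0663; edgeR adjusted p = 0.0967).

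Across the cycle as a whole, 7 further genes of its enzymes were examined beside the 9 members, and 2 of them were called, Dld higher and Sdhc lower. Of these 7, 6 had a fold change below 1, as did 50.7% of all tested genes. Their median log2 fold change was -0.16 against -0.0042 over all tested genes, of which 5.75% were called higher and 5.1% lower. Among 13 genes that feed or drain the cycle, such as those for pyruvate carboxylase, glutaminase and the ketone body transferases, 0 were called by the edgeR test and 1 had an unadjusted p under 0.05, Pcx, with a log2 fold change of -0.23 (edgeR adjusted p = 0.0779). No single direction thus described the cycle's transcripts.

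**Figure D3:**
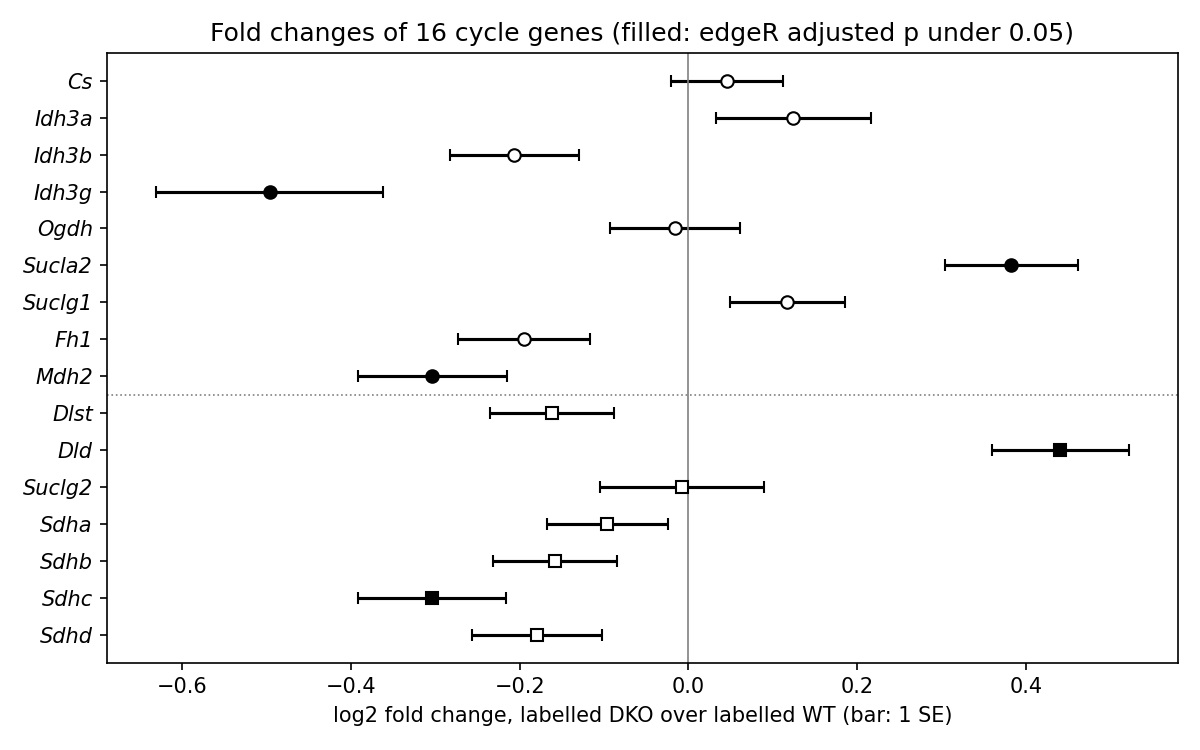
Log2 fold changes of the 9 members (circles, above the dotted line) and the 7 other genes of the cycle (squares), labelled DKO over labelled WT, with bars of 1 SE and filled symbols for an edgeR adjusted p under 0.05. Sucla2 and Dld lie to the right at 0.38 and 0.44, Idh3g, Mdh2 and Sdhc to the left at -0.50, -0.30 and -0.30, and the rest are open.

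Several measured features of the libraries moved with these results. Fold changes of all genes followed transcript length. Tested genes were put in 10 equal classes of length, and the class of Idh3g, Suclg1 and Mdh2, with a median of 1201 bases, had a median log2 fold change of -0.08, and 8.77% of genes were called lower. Suclg1 had a fold change above 1 in that same class. An offset was taken from the deposited effective lengths, in which each transcript is shortened by the fragment length of the library. The offset corrects for that shortening only. With it the log2 fold changes were 0.38 for Sucla2, -0.47 for Idh3g and -0.27 for Mdh2 (edgeR adjusted p = 0.0290, 0.0477 and 0.0602). Mdh2 no longer passed the test.

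**Figure D4:**
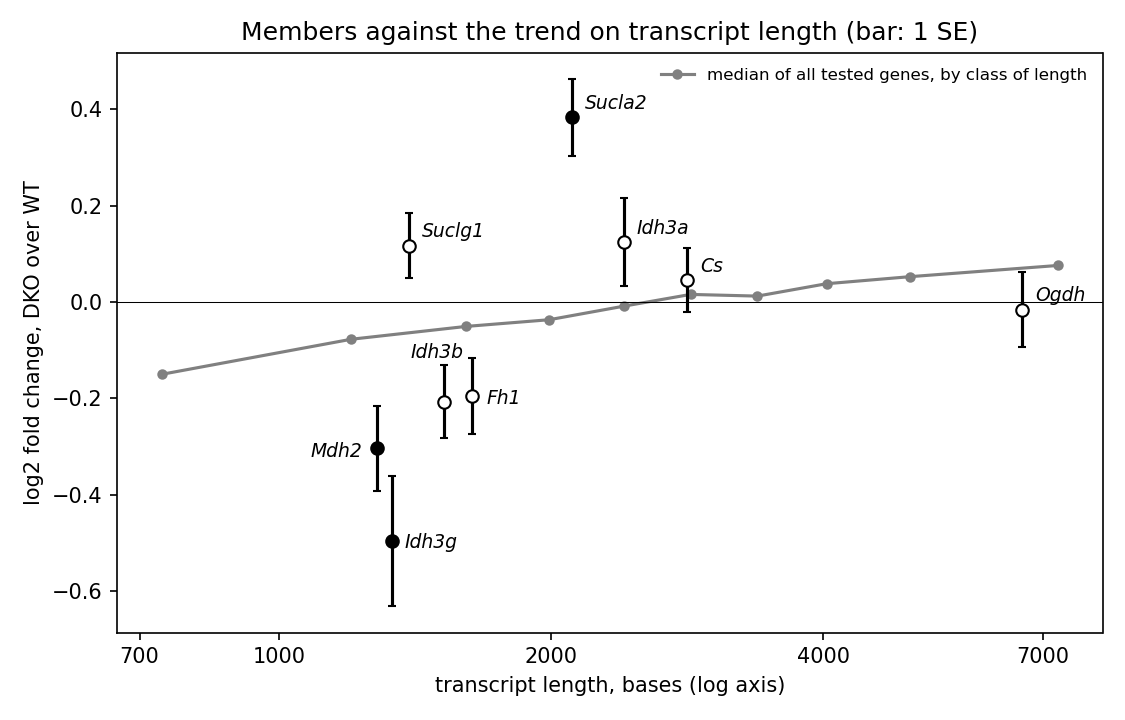
Log2 fold change (labelled DKO over labelled WT, bars of 1 SE) of each of the 9 genes against its transcript length on a log axis, with the grey line joining the medians of 10 equal classes of all tested genes. Filled points passed the edgeR test. Idh3g at -0.50 and Mdh2 at -0.30 lie below the grey line, Sucla2 at 0.38 lies above it, and Cs lies within 1 SE of it.

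With each library's fragment length as a covariate, the log2 fold changes of Sucla2, Idh3g and Mdh2 were 0.18, -0.05 and -0.05, and none passed the test (edgeR adjusted p = 0.999 for each). Fragment length did not overlap between the groups, so the pair cannot be told apart in that fit. Fragments were longest in DKO replicate 1, at 317 bases, and shortest in WT replicate 2, at 230 bases. Summed levels of cell type markers are given here for the same libraries. The 10 Leydig cell markers summed to 913 to 1577 TPM in libraries labelled DKO and to 1559 to 3218 in those labelled WT. These groups overlapped, and the sum was highest in WT replicate 2, where Idh3g and Mdh2 were highest too. Insl3 alone gave 582 to 1193 TPM of it in libraries labelled DKO and 1214.55 to 2575.5 in those labelled WT. Counts of Insl3 carried fractions in all 6 libraries, so its level is uncertain. Of the 10 Leydig cell genes, 9 had a fold change below 1 and 1, Hsd3b1, above 1. The 10 spermatocyte markers summed to 856 to 1063 TPM in libraries labelled DKO and 764 to 821 in those labelled WT, without overlap. Their sum was highest in DKO replicate 1, where Sucla2 and Dld were highest. Of the 10 spermatocyte genes, 8 had a fold change above 1 and 2 below 1. Sertoli cell markers summed to 1019 to 1260 against 1149 to 1498 TPM, with overlap. Clu alone gave 744 to 945 against 832 to 1139 TPM of that sum. Of the 10 Sertoli cell genes, 8 had a fold change below 1 and 2 above 1. The 10 myoid and endothelial markers summed to 73.1 to 86.2 TPM in libraries labelled DKO and 86.3 to 123.6 in those labelled WT. These groups did not overlap, and the sum was again highest in WT replicate 2. All 10 genes had a fold change below 1, as did 50.7% of all tested genes. No marker of these 4 lists was at 0 in all libraries, and their part in the results was not tested.

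Calls on the members depended on single libraries. Sucla2 kept a log2 fold change of 0.31 to 0.42 in the 6 fits that each left out 1 library, and it passed the test in 3 of them. It did not pass without DKO replicate 1, WT replicate 2 or WT replicate 3 (edgeR adjusted p = 0.106, 0.0924 and 0.09998). Idh3g ranged from -0.60 to -0.35 and Mdh2 from -0.40 to -0.24, each past the test in 2 of the 6, and both missed it without those 3 libraries and without DKO replicate 2. The numbers of genes called over the whole genome without DKO replicate 1, WT replicate 2 and WT replicate 3 were 11, 13 and 7, against 1856 with all libraries. Dld passed in 3 of the 6 fits and missed the test without DKO replicate 1, WT replicate 2 or WT replicate 3. Ogdhl passed in 2 and missed it without DKO replicate 2 as well, and Sdhc passed only without WT replicate 1. With the fragment length covariate the log2 fold changes of Dld, Sdhc and Ogdhl were 0.18, -0.39 and 0.06, none past the test, and with the effective-length offset Sdhc was at -0.27 (edgeR adjusted p = 0.0710).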

How the data were processed

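Testis RNA of 3 mice labelled DKO and 3 labelled WT was sequenced, 1 library per animal, and grouped by the genotype label. Replicate numbers only name libraries, in the order of their records, and pair none. The submitters' processing notes list STAR 2.7.0f, RSEM 1.2.31, DESeq2 1.12.3 and the mm10 build. Expected counts per gene, deposited by the authors, are RSEM estimates, of which 93.19% were whole, and the deposited TPM values are the authors' length-scaled levels, which sum to 1000000 per library. Strand handling, filters and the annotation release are not given in the sources used here.

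Expected counts were rounded, filtered with filterByExpr, scaled by TMM and tested with edgeR 4.0.16 (glmQLFit and glmQLFTest, genotype as the only term, R 4.3.3), with Benjamini-Hochberg adjustment over all 17110 genes. The SE is the log2 fold change over the square root of F. CPM values are TMM-normalized. Ratios and sums were compared by exact permutation over libraries.

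The members and gene lists were chosen with earlier results of these data known. Named were the 9 members, 7 further cycle genes (1 more gene of that list is not reported here), called genes of the paralog and supply lists with Csl and Mdh1b, and the 3 genes most like the member with the smallest p. Mdh1 and Pcx were added after their values were seen, and marker lists of cell types were counted. Alternatives were other scalings, filters, tests (DESeq2 1.42.0, limma 3.58.1 with voom and on log2(TPM + 1) and log2(TPM + 0.1)), the effective-length offset, fragment length as a covariate, thinning, thresholds, and leaving out each library.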

Additional observations from a re-analysis of the deposited data

How the results depend on the processing

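The 3 calls among the members stood with DESeq2 size factors, with both count filters and in DESeq2. Mdh2 lost its call with the effective-length offset, after thinning and in limma-voom, which left 1 member called lower in each, and Idh3g and Mdh2 lost theirs on both TPM scales, which left 1 member called, 0 of them lower. With fragment length as a covariate 0 members and 1 gene in all were called, and 545 genes had an unadjusted p under 0.05. At an adjusted p under 0.01, 0 members were called, 0 higher and 0 lower, and 7 genes in all. At 0.1 there were 4, Idh3b being the addition. In the fits that left out a library, members called ranged from 0 to 3, from 0 to 1 higher and from 0 to 2 lower, and all genes called from 7 to 3029. With 0 members called, without DKO replicate 1, WT replicate 2 or WT replicate 3, 4 members still had an unadjusted p under 0.05 in each fit. All genes called numbered 2943 in DESeq2, 735 on log2(TPM + 1), of which 279 were higher, and 947 on log2(TPM + 0.1), of which 370 were higher, against 984 higher of 1856. The median log2 fold change of the members moved from -0.0159 to -0.0875 on log2(TPM + 1) and -0.0894 on log2(TPM + 0.1), and ranged from -0.0726 to 0.0229 across the fits that left out a library. Ogdhl reversed to 0.0633 with the fragment length covariate. The cause of these shifts was not tested, and the covariate fit has fewer residual degrees of freedom. No paired analysis was possible because the labels give the libraries no shared replicate numbers.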
